A study of Rattus norvegicus with 36 samples.

Results

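The genes described are the rat carboxylesterases Ces2c, Ces1c, Ces1d, Ces1e and Ces2e, followed in liver across 5 doses of PBDE47. Members were taken by the platform annotation symbol of their probe sets. Of the 5 genes, 4 had a probe set of their own, and those 4 were covered by 5 of the 31042 probe sets tested (1368905_at for Ces2c, 1371100_at and 1397427_at for Ces1c, 1370363_at for Ces1d and 1387214_at for Ces1e). For Ces2e, no probe set of the annotation table was assigned to it alone, and it was not analysed here.

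PBDE47 is a brominated diphenyl ether that was used as a flame retardant. The animals were male Sprague Dawley rats from Harlan, 7 weeks old at the start of the study, and each group held 6 replicates, taken as 6 livers with 1 array each. A group received corn oil vehicle alone or PBDE47 in it, with 0.0485 mg/kg as the lowest dose, then 0.485 and 4.85 mg/kg, and 48.5 and 485 mg/kg as the highest, by oral gavage of 5 ml/kg body weight on 5 days in a row. The left liver lobe was taken one day after the last dose. Vehicle animals shared the corn oil and the gavage with every dosed group. All dosed groups are compared with the same 6 vehicle livers. Each value is a log2 value of the authors' robust multi-array average (RMA), so 1 unit is a doubling. Different probe sets cannot be ranked by level, and only changes of a probe set between groups are compared here.

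Carboxylesterases are serine hydrolases of the endoplasmic reticulum that split esters, amides and thioesters, among them pyrethroids, ester prodrugs and lipids. Enzymes of the Ces1 class usually prefer substrates with a large acyl and a small alcohol group, and those of the Ces2 class the opposite. Liver is rich in Ces1 enzymes, and several rodent Ces2 genes are known to respond to activators of the nuclear receptors CAR and PXR, which sense drugs and other foreign compounds.

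Ces1f, Ces1e, Ces1d, Ces1c and Ces1a follow each other in this order among the protein-coding genes of chromosome 19 in the RefSeq annotation of GRCr8. Ces2e is on chromosome 19 too, whereas Ces2c is on chromosome 1 next to Ces2i and is the last protein-coding gene listed there. The 250 bases upstream of the annotated start of Ces2c, Ces1e and Ces1d are printed from RefSeq (GRCr8), because Ces2c rose at the 3 highest doses, Ces1e rose at 485 mg/kg alone, and Ces1d, next to Ces1e, did not pass the test at any dose. All 3 lie on the plus strand, and capitals mark every match, on either strand, to 5 short motifs: the nuclear receptor half-sites AGTTCA and AGGTCA, the aryl hydrocarbon receptor core GCGTG, the antioxidant response core TGACNNNGC and the CCAAT box.
Ces2c, chr1:270376951-270377200, plus strand: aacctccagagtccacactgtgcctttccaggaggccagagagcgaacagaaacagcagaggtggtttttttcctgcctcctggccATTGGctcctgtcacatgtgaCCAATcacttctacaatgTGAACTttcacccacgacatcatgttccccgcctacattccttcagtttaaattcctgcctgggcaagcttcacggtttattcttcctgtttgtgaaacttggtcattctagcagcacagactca
Ces1e, chr19:30005923-30006172, plus strand: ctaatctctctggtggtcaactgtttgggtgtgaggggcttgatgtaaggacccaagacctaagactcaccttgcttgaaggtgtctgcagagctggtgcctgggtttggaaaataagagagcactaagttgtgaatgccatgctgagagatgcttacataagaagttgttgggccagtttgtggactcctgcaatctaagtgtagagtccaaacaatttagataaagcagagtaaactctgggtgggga
Ces1d, chr19:30046244-30046493, plus strand: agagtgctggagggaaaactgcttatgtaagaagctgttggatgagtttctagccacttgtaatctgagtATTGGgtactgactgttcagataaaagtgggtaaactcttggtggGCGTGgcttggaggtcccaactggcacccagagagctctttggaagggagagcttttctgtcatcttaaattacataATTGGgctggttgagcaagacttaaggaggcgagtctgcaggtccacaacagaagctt

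The Ces2c window held 1 AGTTCA half-site, read as TGAACT on the printed strand, and 2 CCAAT boxes. No motif of the 5 was found in the Ces1e window. In the Ces1d window 1 GCGTG and 2 CCAAT boxes were found. The Ces1c window, not printed, also held 1 AGTTCA half-site, with 1 CCAAT box, although Ces1c did not pass the test at any dose. The Ces2e window, not printed either, held 1 CCAAT box. These motifs are common: of 33469 rat promoter windows of this length, 12.2% held AGTTCA, 14.1% AGGTCA, 25.9% GCGTG, 10.1% TGACNNNGC and 34.0% CCAAT. No overlap between matches occurred in the printed windows. A match describes the letters only. Within the gene family, the Ces2c window was most like those of Ces2 and Ces2b, with 78.0% and 76.4% of its bases identical in an alignment. For Ces1d, the closest window was that of Ces1dl1, at 88.0%. Transcript and probe sequences were not compared here, so whether a probe set named for 1 gene also measures a relative was not tested.

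Across the 36 arrays the medians lay between 5.31 and 5.38, and correlations between arrays of a group between 0.990 and 0.997. The array of 4.85 mg/kg replicate 6 stood apart, with a mean correlation of 0.991 with its group, against 0.993 to 0.995 for the other arrays. Of 9 hepatocyte marker genes, such as Alb and Apoa1, 0 rose and 6 fell at 485 mg/kg, and their mean level per array was 13.51 to 13.59 at 485 mg/kg, against 13.67 to 13.87 in vehicle livers. Markers of Kupffer cells fell for 4 of 7 genes at that dose, with a mean of 8.06 to 8.63 at 485 mg/kg against 8.72 to 8.93 in vehicle. Sinusoidal endothelium had 2 of 5 markers lower, T and NK cells 2 of 7 lower, cholangiocytes 1 of 4 higher, stellate cells 0 of 7 changed and pancreas acinar cells 1 of 6 lower. Over all genes 11.5% were higher and 9.43% lower at 485 mg/kg. At that dose 7 of 7 T and NK cell markers and 5 of 6 pancreas acinar markers averaged below the lowest array median, 5.31. The marker changes accompany the member changes at 485 mg/kg, and their part in them was not tested. In whole liver, fewer cells of a type and less RNA per cell cannot be told apart.

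Ces2c, which in the mouse hydrolyses diacylglycerols and triacylglycerols as well as foreign esters, was higher than in vehicle from 4.85 mg/kg upward, 1.68-fold at 4.85, 6.00-fold at 48.5 and 18.5-fold at 485 mg/kg. Its log2 values (lowest, median and highest of 6 livers) were 7.52, 7.62 and 7.87 in vehicle, 7.71, 7.84 and 8.21 at 0.0485 mg/kg and 7.52, 7.58 and 7.97 at 0.485 mg/kg. They were 8.06, 8.36 and 8.95 at 4.85 mg/kg, 10.08, 10.19 and 10.50 at 48.5 mg/kg and 11.30, 11.89 and 12.27 at 485 mg/kg. The vehicle livers and the 2 lowest doses overlapped. Every liver of the 3 highest doses lay above every vehicle liver, and those 3 dose groups did not overlap with each other. Of all probe sets, 0.435% at 4.85 mg/kg and 2.2% at 48.5 mg/kg had groups that did not overlap with vehicle, and 7.33% at 485 mg/kg.

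**Figure D1:**
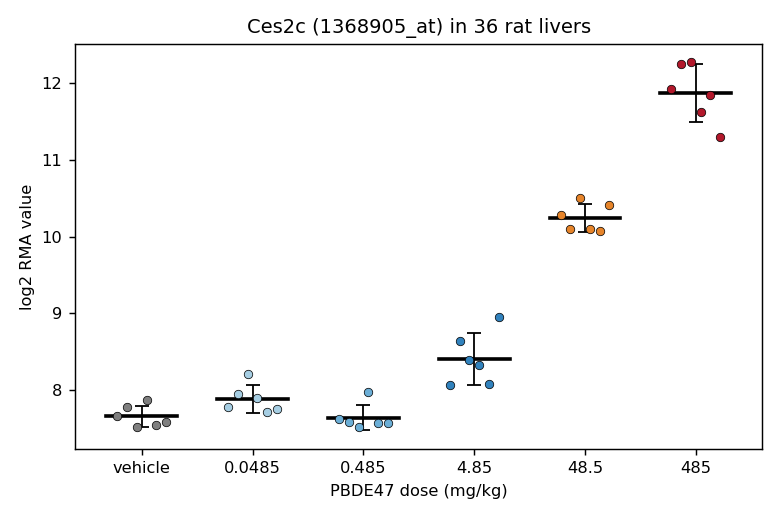
Log2 RMA value of the Ces2c probe set (vertical axis) in each of 36 livers by PBDE47 dose in mg/kg (horizontal axis), with points for single livers, a line for the group mean and bars for the SD (n = 6). The groups from 4.85 mg/kg upward lie above the vehicle livers, whose values are 7.52 to 7.87, and the 485 mg/kg livers lie at 11.30 to 12.27.

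At 4.85 mg/kg, Ces2c averaged 8.41 ± 0.34, against 7.66 ± 0.14 in vehicle (SD, n = 6 each), a log2 change of 0.75 ± 0.13 (SE, limma adjusted p = 0.0154). It was the 1 member called of 4 at this dose, where 0.0193% of all probe sets were called (6 of 31042). The change kept its direction, but the call did not hold without some single livers. Without 4.85 mg/kg replicate 6, which had the highest Ces2c value of its group (8.95), the change was 0.64 and the adjusted p 0.105, and without replicate 2 of that dose the change was 0.70 and the adjusted p 0.0951. Leaving out vehicle replicate 3, 5 or 6 gave changes of 0.72, 0.73 and 0.73, with adjusted p values of 0.0741, 0.0586 and 0.0618. The ordinary linear model gave 0.0514, and a fit of only these 12 arrays 0.199, in each case with the same change of 0.75.

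At 48.5 mg/kg, Ces2c averaged 10.24 ± 0.18, against 7.66 ± 0.14 in vehicle, a log2 change of 2.58 ± 0.13 (SE, adjusted p = 3.37e-16). It was again the 1 member called of 4, with 3.39% of all probe sets called. The 485 mg/kg livers averaged 11.87 ± 0.37, against 7.66 ± 0.14 in vehicle, a log2 change of 4.21 ± 0.13 (adjusted p = 4.98e-23). By p value Ces2c ranked 1 of 31042 probe sets at 485 mg/kg and 3 of 31042 at 48.5 mg/kg. At 485 mg/kg 2 of 4 members were called, with 15.0% of all probe sets called, and the other member was Ces1e.

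The 2 lowest doses gave no call for any member. Ces2c averaged 7.89 ± 0.18 at 0.0485 mg/kg, against 7.66 ± 0.14 in vehicle, a log2 change of 0.23 with a 95% confidence interval of -0.05 to 0.50 (adjusted p = 1.00), and 3 of 6 livers lay above every vehicle liver. At 0.485 mg/kg it averaged 7.64 ± 0.16, a change of -0.02 with an interval of -0.29 to 0.25. The 2 groups overlapped with vehicle. Over all probe sets limma called 0% at both doses, while 4.89% at 0.0485 mg/kg and 4.45% at 0.485 mg/kg had an unadjusted p under 0.05.

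Between neighbouring doses, Ces2c rose at each step above 0.485 mg/kg. It was 1.70-fold higher at 4.85 than at 0.485 mg/kg (log2 0.77 ± 0.13, adjusted p = 0.0149, 0.0129% of all probe sets called). It was 3.57-fold higher at 48.5 than at 4.85 mg/kg (1.84 ± 0.13, adjusted p = 2.12e-11, 1.18% called) and 3.09-fold higher at 485 than at 48.5 mg/kg (1.63 ± 0.13, adjusted p = 2.35e-10, 4.86% called). The groups of each of these 3 pairs did not overlap, which was so for 0.416%, 1.44% and 2.57% of all probe sets, in the same order. From 0.0485 to 0.485 mg/kg the log2 change was -0.25 and did not pass the test. The first of these calls, between 0.485 and 4.85 mg/kg, was lost with the ordinary linear model (adjusted p = 0.0611) and in a fit of the 12 arrays compared (adjusted p = 0.435), with the same change of 0.77. It was also lost without 0.485 mg/kg replicate 1, 2, 3 or 6 or 4.85 mg/kg replicate 2 or 6, with changes between 0.66 and 0.77 and adjusted p values between 0.0559 and 0.0757. The last step minus the step before it, a test chosen after the values were seen, was -0.21 ± 0.23 (SE, 95% confidence interval -0.68 to 0.27, adjusted p = 0.862).

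Pooled over the 6 groups, Ces2c also varied more between livers of a group than most genes. Its residual SD within groups was 0.247, above that of 92.6% of 14217 genes, whose median was 0.138. The widest groups were 485 mg/kg (SD 0.37) and 4.85 mg/kg (SD 0.34). The SD was lower in vehicle (0.14) and at 0.0485 (0.18), 0.485 (0.16) and 48.5 mg/kg (0.18). At 485 mg/kg, replicate 6 had the lowest value (11.30), which was still above the highest liver at 48.5 mg/kg (10.50).

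Because several Ces2 genes are expressed in intestine, intestinal epithelium markers such as Vil1 and Cdx2 were read beside Ces2c. Their mean level per array was 4.28 to 4.50 at 485 mg/kg, against 4.25 to 4.52 in vehicle livers, 0 of 6 were called, and 5 of 6 lay below the lowest array median of 5.31 in both groups. As a measure of RNA integrity, the control probe sets at the 3' end minus those at the 5' end gave -0.13 to -0.04 log2 for Gapdh at 485 mg/kg, against -0.14 to 0.01 in vehicle. The same difference was 1.06 to 1.33 for beta-actin at 485 mg/kg, against 1.13 to 1.46 in vehicle. For hexokinase it was 1.13 to 1.45 at 485 mg/kg, against 1.12 to 1.40 in vehicle.

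Ces1e is the rat counterpart of mouse egasyn, a protein that holds beta-glucuronidase (Gusb) in the endoplasmic reticulum. It rose at 485 mg/kg, by 1.32-fold. Its lowest, median and highest log2 values were 10.22, 10.31 and 10.37 in vehicle, 10.29, 10.40 and 10.57 at 0.0485 mg/kg and 10.20, 10.31 and 10.45 at 0.485 mg/kg. They were 10.24, 10.42 and 10.65 at 4.85 mg/kg, 10.15, 10.44 and 10.54 at 48.5 mg/kg and 10.58, 10.72 and 10.87 at 485 mg/kg. The 6 livers at 485 mg/kg lay above all vehicle livers and above all livers at 48.5 mg/kg, whereas each other dose group overlapped with vehicle. At 485 mg/kg 7.33% of all probe sets did not overlap with vehicle, and 2.57% did not overlap with 48.5 mg/kg.

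Ces1e averaged 10.70 ± 0.11 at 485 mg/kg, against 10.31 ± 0.05 in vehicle (SD, n = 6 each), a log2 change of 0.40 ± 0.07 (SE, 95% confidence interval 0.25 to 0.54, adjusted p = 6.44e-05). From 48.5 to 485 mg/kg Ces1e rose 1.23-fold (log2 0.30, adjusted p = 0.00716, 4.86% of all probe sets called). That step lost its call in a fit of only the 12 arrays compared (adjusted p = 0.0582). At 48.5 mg/kg the change from vehicle was 0.10 (interval -0.04 to 0.24, adjusted p = 0.542), and at 4.85 mg/kg it was 0.13 (adjusted p = 0.787), with 5 of 6 livers above every vehicle liver.

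Ces1d, known in the mouse as a triacylglycerol hydrolase that mobilises stored lipid for lipoprotein assembly, and Ces1c, a carboxylesterase that the mouse secretes into plasma, did not pass the test at any dose. The Ces1d values (lowest, median and highest) were 12.56, 12.96 and 13.21 in vehicle, 12.60, 12.74 and 13.08 at 0.0485 mg/kg and 12.36, 12.85 and 13.17 at 0.485 mg/kg. They were 12.44, 12.84 and 13.22 at 4.85 mg/kg, 12.63, 12.98 and 13.20 at 48.5 mg/kg and 12.46, 13.09 and 13.31 at 485 mg/kg. All 6 groups overlapped. At 485 mg/kg the Ces1d change was 0.05 ± 0.14 (SE, adjusted p = 0.876), with a 95% confidence interval of -0.23 to 0.34.

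Ces1c was measured by 1371100_at, the brighter of its 2 probe sets. Its values were 13.51, 13.57 and 13.74 in vehicle, 13.57, 13.65 and 13.93 at 0.0485 mg/kg and 13.49, 13.70 and 13.81 at 0.485 mg/kg. They were 13.65, 13.67 and 13.80 at 4.85 mg/kg, 13.50, 13.66 and 13.75 at 48.5 mg/kg and 13.56, 13.67 and 13.81 at 485 mg/kg. The groups overlapped throughout. At 485 mg/kg the Ces1c change was 0.07 ± 0.06 (adjusted p = 0.537), with an interval of -0.06 to 0.20. These values lie close to the top of the arrays' scale, where the highest value of any probe set was 15.07. The other Ces1c probe set, 1397427_at, averaged 3.72 ± 0.11 at 485 mg/kg and 3.86 ± 0.21 in vehicle (adjusted p = 0.300), below the lowest array median, and it followed the brighter one weakly across 36 arrays (r = 0.14).

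**Figure D2:**
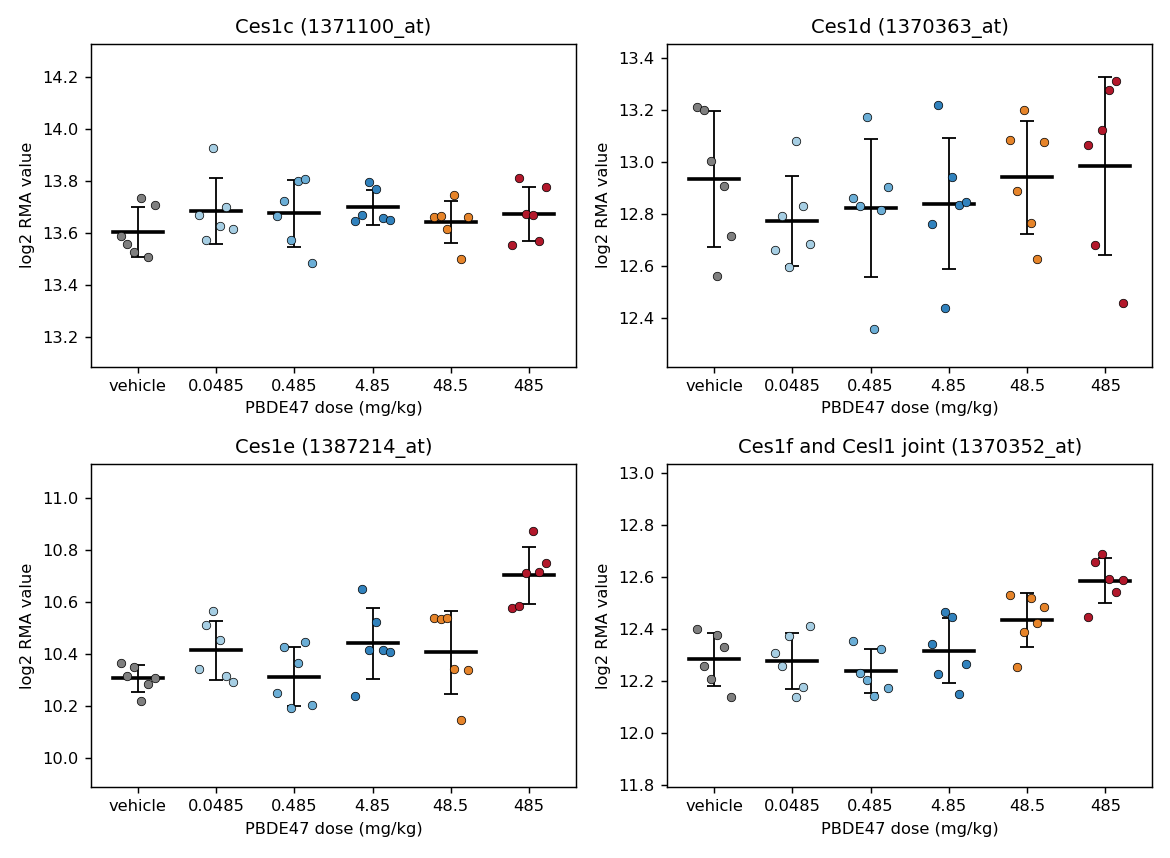
Log2 RMA values (vertical axes, equal spans) of Ces1c, Ces1d, Ces1e and the joint Ces1f and Cesl1 probe set in 36 livers by PBDE47 dose in mg/kg (horizontal axes), with points for livers, lines for group means and bars for the SD (n = 6). The Ces1e and joint values at 485 mg/kg lie above their vehicle livers (10.58 to 10.87 against 10.22 to 10.37 for Ces1e), and the Ces1c and Ces1d groups overlap.

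A moderated F test over the 5 doses called Ces2c (adjusted p = 3.07e-24) and Ces1e (adjusted p = 0.000511), with 13.0% of all probe sets called. Ces1c (adjusted p = 0.855) and Ces1d (adjusted p = 0.822) did not pass it. Residual SDs within groups were 0.257 for Ces1d, above that of 93.4% of genes, 0.119 for Ces1e and 0.103 for Ces1c.

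A probe set shared by Ces1f and Cesl1 (1370352_at), looked at after the annotation was read, adds a joint value for 2 further genes of the family without a probe set of their own. It was 12.44, 12.59 and 12.69 (lowest, median and highest) at 485 mg/kg and 12.14, 12.29 and 12.40 in vehicle. Its 485 mg/kg livers lay above all vehicle livers, in a comparison where 7.33% of all probe sets had groups that did not overlap. The change was 1.23-fold (log2 0.30, adjusted p = 4.96e-04), and which of the 2 genes it came from cannot be told apart. At 48.5 mg/kg the log2 change was 0.15 (adjusted p = 0.214). Of 18 other carboxylesterase genes listed, only Ces5a had a probe set of its own, at a mean of 3.97 at 485 mg/kg and 4.07 in vehicle (adjusted p = 0.268), below the array medians.

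**Figure D3:**
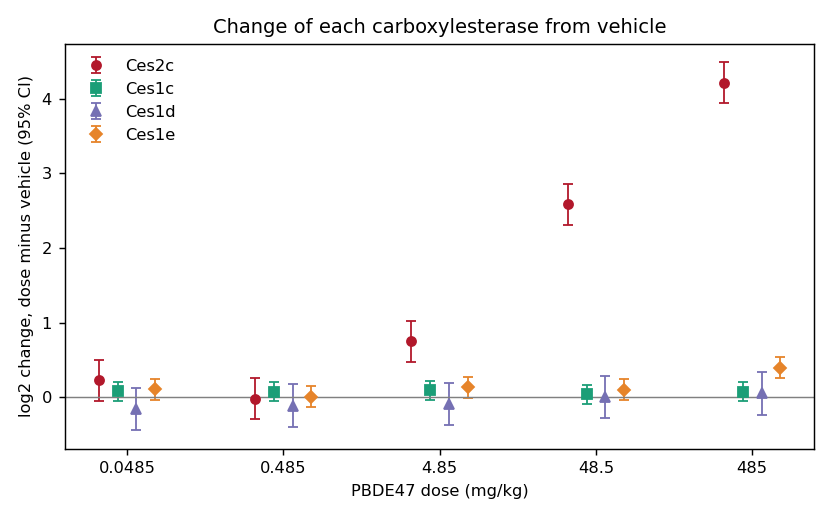
Log2 change from vehicle (vertical axis) of Ces2c, Ces1c, Ces1d and Ces1e at each PBDE47 dose in mg/kg (horizontal axis), with bars for the 95% confidence interval (n = 6 livers per group). Ces2c lies at 0.75, 2.58 and 4.21 at the 3 highest doses, Ces1e at 0.40 at 485 mg/kg, and the intervals of Ces1c and Ces1d include 0 at every dose.

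The change of Ces2c was set against that of each other member within the same livers, by an exact two-sided permutation test of 6 against 6 livers. At 4.85 mg/kg Ces2c changed by 0.65 more than Ces1c, 0.84 more than Ces1d and 0.61 more than Ces1e on the log2 scale. The excess at 48.5 mg/kg was 2.55, 2.58 and 2.48, and at 485 mg/kg it was 4.14, 4.16 and 3.82. Standard errors lay between 0.09 and 0.22. All 9 differences passed after adjustment over the 9 tests. The exact p was 0.00216 (adjusted 0.00244), the smallest this design allows, for 8 of them, and 0.00649 (adjusted 0.00649) for Ces1d at 4.85 mg/kg, where 4 of 6 livers lay above every vehicle liver.

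Over all 36 arrays, the genes whose values followed Ces2c most closely among 14213 were Aldh1a1, a retinaldehyde dehydrogenase (Pearson r = 0.98), Abcc3, a basolateral export pump for conjugates (0.98), and Parp1, an enzyme of DNA repair (0.98). Next came Vav2, a guanine nucleotide exchange factor (0.98), Nqo1, a quinone reductase (0.98), and Blvrb, a biliverdin and flavin reductase (0.98). These correlations span the dose groups, so shared dependence on dose enters them. After removal of the group means they were 0.65 for Aldh1a1, 0.50 for Abcc3, 0.47 for Parp1, 0.42 for Vav2, 0.49 for Nqo1 and 0.68 for Blvrb. At 4.85, 48.5 and 485 mg/kg, Nqo1 changed by 0.48, 1.40 and 2.73 and Blvrb by 0.25, 0.57 and 1.02. Abcc3 changed by 1.06, 3.27 and 4.55, beside 0.75, 2.58 and 4.21 for Ces2c.

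**Figure D4:**
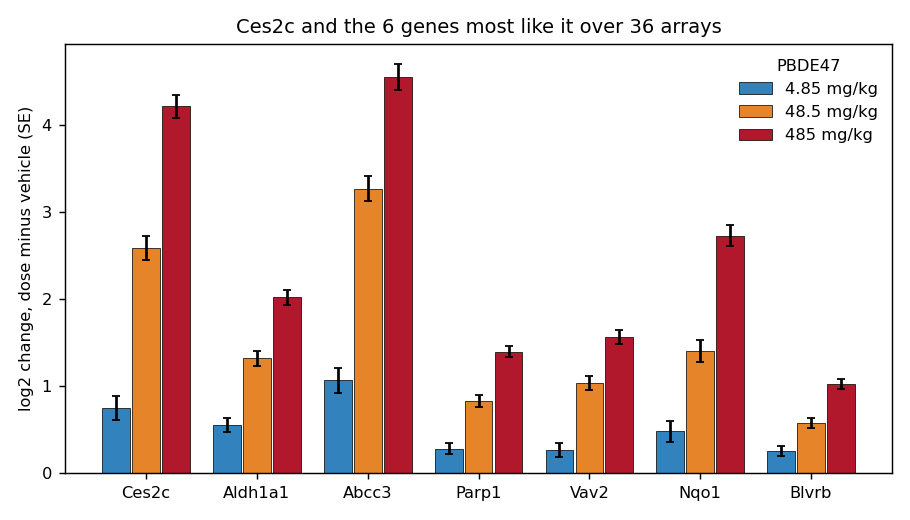
Log2 change from vehicle (vertical axis) at 4.85, 48.5 and 485 mg/kg for Ces2c and the 6 genes most like it over 36 arrays (horizontal axis), with bars from 0 and the SE of each change as error bars (n = 6 livers per group). All 7 genes climb over the 3 doses, with Abcc3 (4.55) and Ces2c (4.21) the highest of the 7 at 485 mg/kg.

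Ces1e followed Aldh1l1, a folate enzyme (r = 0.91, and 0.82 after removal of group means), Mipep, a mitochondrial peptidase (0.85 and 0.68), and Selenbp1, a selenium-binding protein (0.84 and 0.68). At 485 mg/kg these 3 rose by 0.55, 0.64 and 0.94 on the log2 scale, beside 0.40 for Ces1e. Ces1d was closest to P4hb, the protein disulfide isomerase (0.64 and 0.64), Erp29, another chaperone of the endoplasmic reticulum (0.60 and 0.61), and Sec11c, a subunit of the signal peptidase (0.57 and 0.54). Ces1c was closest to Armc8 (0.60 and 0.68), Lgals8 (0.57 and 0.60) and C5h8orf88 (0.56 and 0.60). The genes named for each member have the highest r among 14213 genes. How high r would reach by chance among so many was not tested.

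Within dose groups the members did not vary as a block. Of the 6 pairs of members, Ces1c and Ces1d went in opposite directions: over 36 livers, with each group's mean removed, Pearson r was -0.52 (permutation p = 0.0027 within groups, 0.0162 adjusted over 6 pairs) and Spearman rho was -0.46 (permutation p = 0.00919, adjusted 0.0551). Without the 2 livers farthest from the median Ces1c deviation r was -0.53, and the livers farthest out in Ces1d were not left out in turn. It was negative in 5 of 6 groups. Livers with less Ces1d than their group's mean thus tended to have more Ces1c, although rho missed the threshold after adjustment. Correlations of the other 5 pairs lay between 0.10 and 0.34, with adjusted permutation p values of 0.150 to 0.645.

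**Figure D5:**
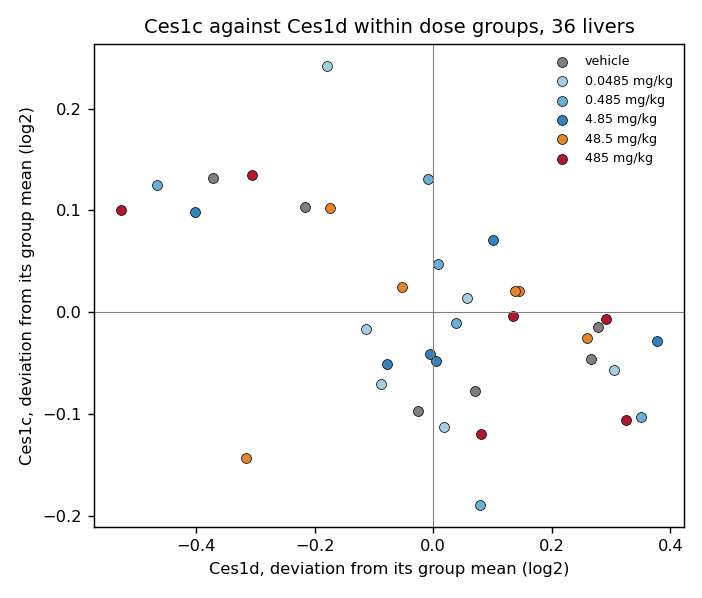
Deviation of Ces1c from its dose group's mean (vertical axis, log2) against that of Ces1d (horizontal axis, log2) in 36 livers, coloured by dose group. Points run from upper left to lower right (r = -0.52).

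Other ester and lipid hydrolases were listed as relatives in function, together with related genes such as Baat and Abhd5. Of 26 measured genes, 3 changed at 48.5 mg/kg (2 higher, 1 lower). At 485 mg/kg 11 of 26 changed (8 higher, 3 lower), with Baat among the lower ones (-0.30). Over all genes 4.03% were higher and 1.08% lower at 48.5 mg/kg, and 11.5% higher and 9.43% lower at 485 mg/kg. The list's median log2 change at 485 mg/kg was 0.10, beside -0.01 over all genes. Nceh1, which hydrolyses neutral cholesterol esters, averaged 8.74 ± 0.32 at 485 mg/kg and 7.39 ± 0.59 in vehicle (log2 1.34, adjusted p = 1.79e-04). Mgll, the monoacylglycerol lipase, averaged 9.98 ± 0.08 at 485 mg/kg and 8.81 ± 0.12 in vehicle (1.17, adjusted p = 1.27e-12). The acyl-CoA thioesterases Acot4 and Acot2 rose by 0.85 and 0.69, and Lipc, the hepatic lipase, fell by 0.68 (adjusted p = 1.36e-10). At 48.5 mg/kg Nceh1 rose by 1.16, Mgll rose by 0.42 and Lipc fell by 0.23. Of the same list, the microsomal deacetylase Aadac (-0.04, adjusted p = 0.834) and the paraoxonase Pon1 (0.07, adjusted p = 0.253), did not pass the test at 485 mg/kg.

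Partners of the Ces1 enzymes, for retention in the endoplasmic reticulum and for very low density lipoprotein assembly, were listed too. Of 12 measured genes, 1 rose at 48.5 mg/kg (Tm6sf2, 0.23) and 2 rose at 485 mg/kg: Mttp, the microsomal triglyceride transfer protein (0.27, adjusted p = 5.25e-04), and Tm6sf2 (0.23, adjusted p = 0.00448). These counts are near the shares over all genes, of which 4.03% were higher at 48.5 mg/kg and 11.5% at 485 mg/kg. For Gusb, the partner of egasyn, the change at 485 mg/kg was -0.11 (adjusted p = 0.171).

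Of 11 genes for xenobiotic receptors and their cofactors, 1 rose and 1 fell at 48.5 mg/kg, and 2 rose and 1 fell at 485 mg/kg. Among all genes 4.03% were higher and 1.08% lower at 48.5 mg/kg, and 11.5% higher and 9.43% lower at 485 mg/kg. The aryl hydrocarbon receptor Ahr rose by 0.76 and Keap1, the inhibitor of NRF2, by 0.39 at 485 mg/kg, while the glucocorticoid receptor Nr3c1 fell by 0.62. Nr1i2, which encodes PXR, stood at -0.02 (adjusted p = 0.919) and Nr1i3, which encodes CAR, at -0.45 (adjusted p = 0.0732). Among 19 listed CAR and PXR targets, 4 were higher with 4.85 mg/kg, 15 with 48.5 mg/kg and 18 with 485 mg/kg, and Cyp2b3 was lower with the last of these (-0.37). Of 14217 genes, 0.0352% were higher at 4.85 mg/kg. Gsta3, a glutathione transferase, changed by 1.99 and 3.79 at 48.5 and 485 mg/kg, and Cyp3a9, a cytochrome P450, by 1.70 and 1.24. Gadd45b, a stress response gene, changed by 2.39 at 485 mg/kg. NRF2 targets were higher for 4 of 11 genes at 48.5 mg/kg and 10 of 11 at 485 mg/kg, among them the glutathione reductase Gsr (1.87), Akr7a3, an aldehyde reductase (1.68), and Srxn1, the sulfiredoxin (1.36). Median changes at 485 mg/kg were 1.24 for the CAR and PXR targets and 0.91 for the NRF2 targets, beside -0.01 over all genes. Ces2c was not on these lists. Its change of 4.21 at 485 mg/kg lay between those of 2 listed CAR and PXR targets, Abcc3 (4.55) and Gsta3 (3.79). These changes lay far above that list's median of 1.24. Whether CAR, PXR or NRF2 acts on Ces2c was not tested.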

How the data were processed

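Liver RNA of 36 male rats was measured on 36 Affymetrix rat arrays, 6 per group. Per the submitters' processing notes the authors made the deposited log2 values with RMA and the R package affy, versions not given. RMA corrects background, quantile normalizes between arrays and summarizes each probe set, which fixes the scale across arrays and can compress changes of bright probe sets. Arrays have no read depth, so precision depends on how many there are.

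The table held 31099 probe sets, of which 57 were controls and the other 31042 were tested whatever their level. The platform table assigned 20826 to a single gene, 436 to several and 9780 were unnamed here, and 20758 matched the RefSeq gene table of GRCr8, with 0 symbols changed. A gene (14217 in all) was represented by its probe set with the highest mean over 36 arrays.

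The 6 group means were fitted to all 36 arrays with limma 3.58.1 under R 4.3.3 (residual degrees of freedom 30, prior 5.26). Tests were two-sided, with Benjamini-Hochberg adjustment over 31042 probe sets for each comparison, and a call needs an adjusted p under 0.05. Exact permutation tests used all 924 labelings of 6 against 6 livers. Correlations were tested with 100000 permutations within groups. The difference tests were planned for 12 pairs, and 9 were run because Ces2e had no probe set. Promoter windows were aligned with Biopython 1.88 under Python 3.11.15. The procedure was tested on simulated data.

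The members and lists were chosen with earlier results of these data known. The named genes are the members, the 6 genes most correlated with Ces2c and the 3 most correlated with each other member, and from each list up to 4 called genes with the largest change at 485 mg/kg and up to 3 at 48.5 mg/kg. The genes given from the lists outside this rule (the uncalled Aadac, Pon1, Gusb, Nr1i2, Nr1i3 and Ces5a, and the called Cyp2b3) were chosen after their values were seen. The study's own R/maanova test was not run, and the ordinary linear model stood in for it. Alternatives were that test, eBayes with trend and robust settings, quantile normalization, median centring, a filter on dim probe sets (15521 kept), averaging the probe sets of a gene, the replicate block, only the arrays compared, and each array left out. The labels name no batch. They number 6 replicates per group, taken here as separate animals without a label that says so outright. If they were not, the p values measure only the spread between these samples.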

Additional observations from a re-analysis of the deposited data

Results flagged for a closer look

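Single values stood out within their group of 6 livers, each as a highest value far from the next one. Of 30 groups examined, 2 were singled out, and chance alone singles out about 5% of groups. Ces2c was 7.97 in 0.485 mg/kg replicate 4, where the next liver had 7.62 and the lowest 7.52. Without that liver the Ces2c change at 0.485 mg/kg against vehicle was -0.09, and the step from 0.485 to 4.85 mg/kg was 0.83 (adjusted p = 0.00626). Ces1c (1371100_at) was 13.93 in 0.0485 mg/kg replicate 3, where the next liver had 13.70 and the lowest 13.57. Without it the Ces1c change at 0.0485 mg/kg was 0.03, beside 0.08 with it.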

How the results depend on the processing

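Across the alternatives no member change that was called turned its direction. The calls at the 3 comparisons that moved were few. The count of members called at 4.85 mg/kg against vehicle was 0 in place of 1 with the ordinary linear model and with only the 12 arrays compared, and so was that of the step from 0.485 to 4.85 mg/kg. With only the 12 arrays compared, the step from 48.5 to 485 mg/kg had 1 call in place of 2, Ces1e being lost. Each of these fits has fewer degrees of freedom for the spread. Leaving out 1 array gave 0 to 1 calls at 4.85 mg/kg against vehicle and 0 to 1 for the step from 0.485 to 4.85 mg/kg, always through Ces2c, whose adjusted p at 4.85 mg/kg ranged from 0.0062 to 0.199 over all alternatives. At 48.5 mg/kg the count stayed at 1, at 485 mg/kg and in the F test at 2, and the number of differences between Ces2c and the other members that passed stayed at 9. With the replicate number as a block the counts were 1 at 4.85, 1 at 48.5 and 2 at 485 mg/kg, as without it, and no other call changed. Whether the numbers pair the animals was not tested. Of 90 pairs of arrays with the same number, 19 had correlated deviations above 0.1. Closest to an array with their own number were 12 of 36 arrays, and the share that chance would give was not computed. The mean correlation of deviations was 0.019 for arrays with the same number and -0.004 for arrays with other numbers. Whether the bright scale of Ces1c or its dim second probe set hid a change of that gene was not tested. Nor was it tested whether a probe set also measures a relative.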

Other observations

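The last dose step of Ces2c was set beside that of 5 other genes or gene pairs that rose with PBDE47, all chosen after the values were seen. From 48.5 to 485 mg/kg Ces2c rose by 1.63 on the log2 scale. The step was 0.19 for the probe set shared by the cytochrome P450 genes Cyp2b1 and Cyp2b2, 0.70 for Aldh1a1, 1.28 for Abcc3, 1.32 for Nqo1 and 1.80 for Gsta3. Ces2c exceeded the Cyp2b1 and Cyp2b2 probe set by 1.43 ± 0.15 (SE, exact permutation p = 0.00216, adjusted 0.00541 over 5 tests), Aldh1a1 by 0.93 ± 0.14 (exact p = 0.00216, adjusted 0.00541) and Abcc3 by 0.34 ± 0.12 (exact p = 0.0152, adjusted 0.0253). Within livers, 6 of 6 at 485 mg/kg lay above every liver at 48.5 mg/kg in the first 2 of these comparisons and 5 of 6 in the comparison with Abcc3. Ces2c minus Nqo1 was 0.30 ± 0.18 (exact p = 0.123, adjusted 0.154) and Ces2c minus Gsta3 was -0.17 ± 0.20 (exact p = 0.444, adjusted 0.444), and neither passed the test. The Cyp2b1 and Cyp2b2 probe set averaged 14.44 ± 0.07 at 485 mg/kg and 14.25 ± 0.05 at 48.5 mg/kg (SD, n = 6 each), close to the highest value on the arrays, 15.07. Whether the top of the scale holds that probe set down was not tested.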
